A study of Homo sapiens with 3 samples.

Results

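The genes described here carry iron and haem through a liver cell. They are the plasma iron carrier transferrin (TF), its receptors TFRC and TFR2, the ferritin chains FTH1 and FTL, and the haem-degrading enzyme heme oxygenase (HMOX1). The others are the iron exporter ferroportin (SLC40A1), SLC11A2, which moves iron out of endosomes, and the iron regulatory proteins ACO1 and IREB2. Every probe set whose annotation gives 1 of these genes and no other was taken, which gave 24 probe sets for 8 of the 10 genes, among 41097 probe sets for 19775 genes in all. No probe set is named for FTH1 or IREB2 here, and they were not analysed. The list was drawn up with the large TF and HMOX1 differences of these arrays already known. Its members were thus chosen by the signal differences between these arrays, which are given as a description.

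RNA came from 3 cultures of the metastatic human hepatoma line MHCC97Low, an established hepatocellular carcinoma cell line. One culture was the parental line, another a cisplatin-resistant subline and the third a doxorubicin-resistant subline, both generated from MHCC97Low, with 1 array for each. All 3 were grown in DMEM with serum and received no treatment, per the labels. Cisplatin is a platinum compound that crosslinks DNA. Doxorubicin, an anthracycline, blocks topoisomerase II on DNA and can bind iron. The study set each subline against the parental line in search of resistance genes. With 1 array per group there was no spread between cultures to set a difference against, no test was made, and precision is limited by having so few arrays. Each subline is 1 selected culture, so drug resistance and any other property of that culture cannot be told apart.

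Iron travels in plasma bound to transferrin, which hepatocytes make and secrete. Cells take it up through transferrin receptors and endosomes, store it in ferritin and export it through ferroportin, while heme oxygenase releases iron from haem. Iron regulatory proteins bind a hairpin called the iron-responsive element, which blocks translation when it lies at the start of an mRNA, as in ferritin, and protects the mRNA from decay when it lies at the end, as in TFRC. Arrays measure the mRNA alone and not its translation.

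The TF promoter is shown because TF had the largest difference of the group. The sequence is RefSeq's on GRCh38.p14, chr3:133746143-133746442, plus strand, from 250 bases before to 50 after the annotated start used in liver. Capitals mark a C/EBP-type match (TTGNGCAA) followed by a match to the site core of the nuclear receptor HNF4 (GGTCAAAG).
TF: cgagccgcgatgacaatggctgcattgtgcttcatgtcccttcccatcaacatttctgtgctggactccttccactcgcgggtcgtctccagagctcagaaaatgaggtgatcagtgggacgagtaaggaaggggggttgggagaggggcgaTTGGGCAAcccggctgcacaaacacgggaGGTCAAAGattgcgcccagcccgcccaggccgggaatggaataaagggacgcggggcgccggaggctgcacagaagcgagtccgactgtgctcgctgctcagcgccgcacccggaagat
The matches start at positions -98 and -69 from the annotated start. Both motifs were searched on both strands in all 35116 RefSeq windows of this length, and 2.61% of windows held the first and 0.783% the second. The 12 windows of the genes described here cover TF, TFRC, FTL, SLC40A1, SLC11A2, ACO1 and IREB2. Among these windows, only the TF window shown held the first motif, and the other of the 2 TF windows held neither. The second was also in 1 window of SLC11A2, at position -170. The core of the antioxidant response element (TGACNNNGC, both strands) was in none of the 12 windows and in 13.3% of all. HMOX1, TFR2 and FTH1 had no window here, so their promoters were not searched. A match is a run of letters and not a shown binding site.

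The start of the iron-responsive element of FTL is shown because it is the control point of a gene whose mRNA signal differed little here. It lies at chr19:48965337-48965358 on GRCh38.p14, plus strand, in the 5′ untranslated region, and the window ends inside the hairpin. Capitals mark the loop motif CAGTGN, whose match starts at position 39.
FTL: cttgcttcaaCAGTGTttggac
The 6 letters are common. On the sense strand, 32.1% of all windows held a match, among them 1 window each of TF and TFRC at positions before their annotated start.

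Values are MAS5 signals, the linear summary of the probes of a probe set, with every array scaled to a similar overall level. Where 3 signals follow each other, the first is from parental cells, the next from the cisplatin-resistant and the last from the doxorubicin-resistant subline. The floor was 76.9 signal units, the median of the pooled arrays. Lower values were set to the floor on the log2 scale, and a probe set with both values under it was left out of that comparison. Of the 24 probe sets, 15 were above the floor on all 3 arrays, 2 on 2 arrays, 1 on 1 array and 6 on none. Where the dimmer value is at the floor, the fold is a bound and is written with "at least". Array medians lay between 73.3 and 79.2 signal units. Of 14 hepatocyte markers, 11 were above the floor in the parental array, 11 in the cisplatin-resistant subline and 9 in the doxorubicin-resistant subline. Of 5 leukocyte markers with a probe set, at most 1 was above the floor on any array. Of 6 fibroblast markers, 2 were above the floor in parental cells, 3 in the cisplatin-resistant subline and 2 in the doxorubicin-resistant subline. COL1A1 and LUM were above it on all 3 arrays, and COL1A2, COL3A1 and PDGFRB on none. Of 5 endothelial markers, PECAM1 and KDR were above the floor on all 3 arrays and CDH5, VWF and TEK on none, with a summed signal of 1326, 1117 and 1031.

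**Figure D1:**
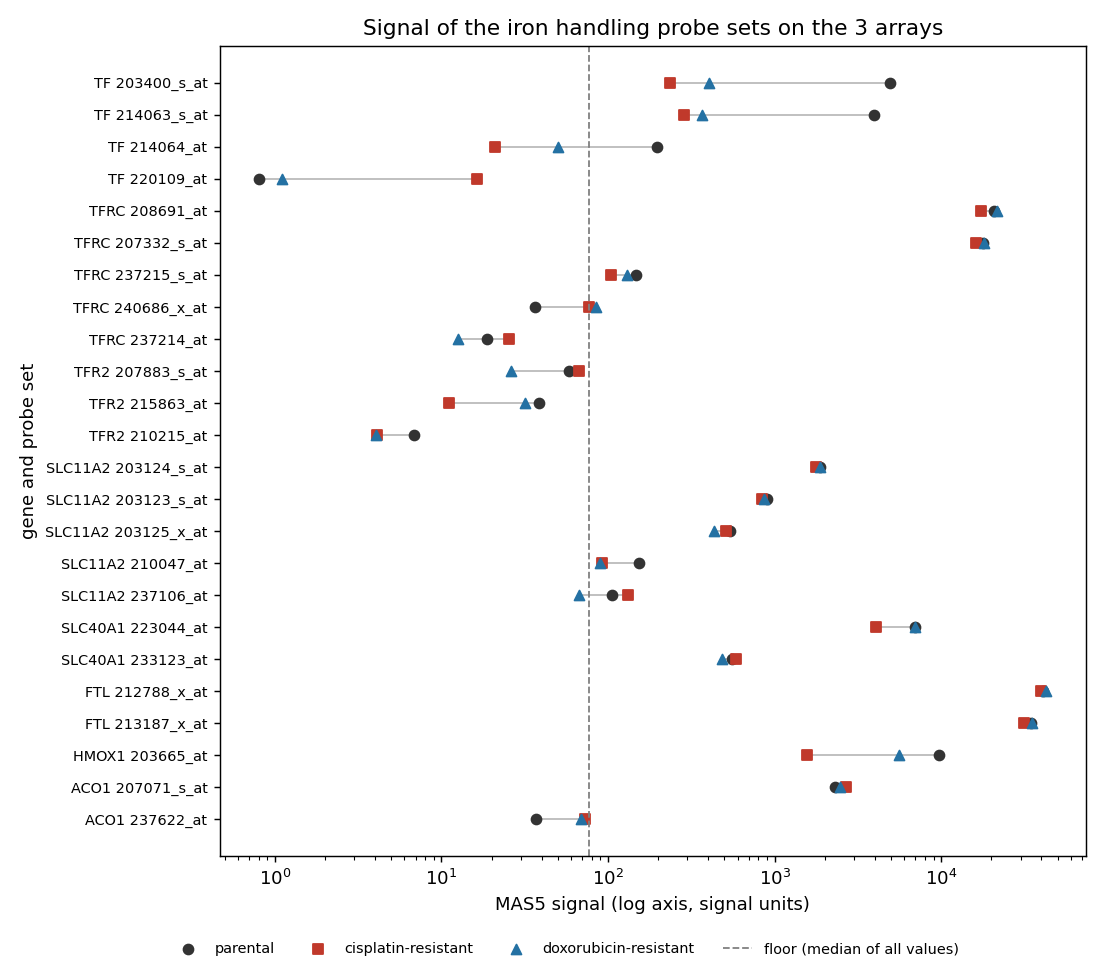
MAS5 signal (log axis, signal units) of all 24 probe sets on the arrays of the parental line and both sublines, 1 point per array; the dashed line is the floor of 76.9. TF and HMOX1 points are spread apart, while the bright TFRC, FTL, SLC11A2 and ACO1 points nearly coincide.

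Transferrin was far lower in both sublines. Its brightest probe set (203400_s_at) had a signal of 4925 in parental cells, 234 in the cisplatin-resistant subline and 404 in the doxorubicin-resistant subline. The probe set 214063_s_at read 3931, 285 and 367 on the same arrays. The parental value was the high one in both probe sets, and both sublines stayed above the floor. Against parental, the folds were 21.0 and 13.8 lower in the cisplatin-resistant array and 12.2 and 10.7 lower in the doxorubicin-resistant array. The dimmer probe set 214064_at had a parental signal of 197 and lay under the floor in both sublines, at least 2.57-fold lower in each. The remaining one, 220109_at, was under the floor on all 3 arrays and was not compared.

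Among the 25654 probe sets above the floor on both the cisplatin-resistant and parental arrays, no probe set had a lower log2 difference than the brightest of TF, at -4.40, and the other bright TF probe set came next, at -3.78. In the doxorubicin-resistant array, 4 and 5 of 25319 such probe sets lay below the TF values of -3.61 and -3.42. Both comparisons use the same parental array. Set against each other, the sublines differed less. TF was 1.73-fold higher in the doxorubicin-resistant than in the cisplatin-resistant array by the brightest probe set and 1.29-fold by 214063_s_at. Each line is a bulk culture, where fewer cells making a transcript and less transcript per cell cannot be told apart.

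Genes next to TF on chromosome 3 did not share its difference. The median log2 difference of its 15 nearest compared genes was -0.09 in the cisplatin-resistant array, with a range of -0.78 to 0.74. In the doxorubicin-resistant array the median was -0.04 and the range -0.52 to 0.58. None of the 15 reached 2-fold in either, and with the median subtracted TF stood at -4.30 and -3.57.

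**Figure D2:**
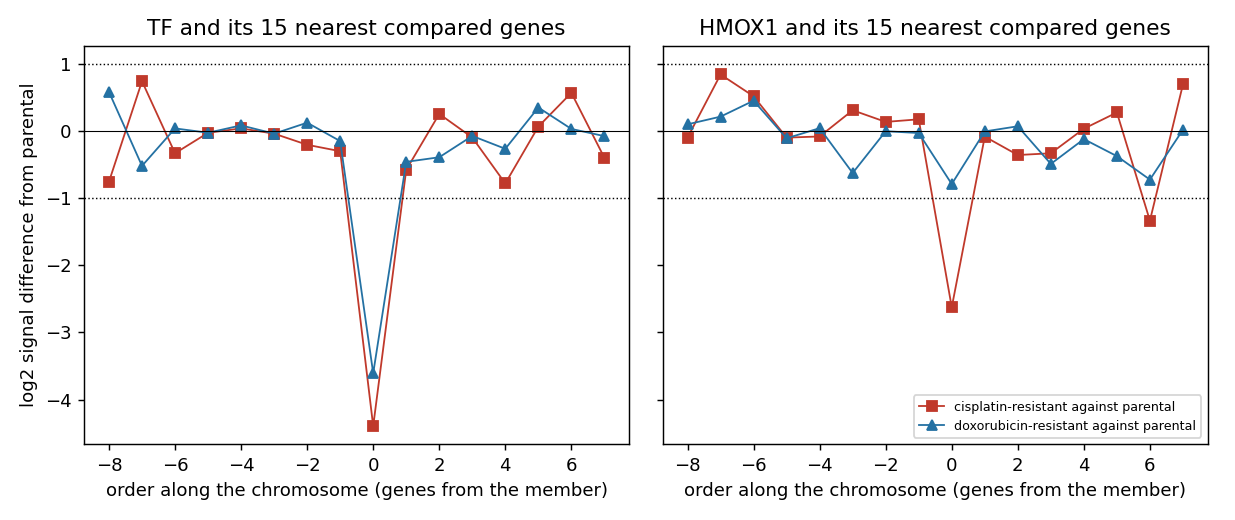
Log2 signal difference from parental for TF (left) and HMOX1 (right) and the 15 compared genes nearest to each, in order along the chromosome, with squares for the cisplatin-resistant and triangles for the doxorubicin-resistant array. Dotted lines mark 2-fold. TF stands at -4.40 and -3.61 among neighbours between -0.78 and 0.74, and HMOX1 at -2.62 and -0.79.

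TFRC, the receptor that takes up iron-loaded transferrin in most cells, was bright and close to level. The probe set 208691_at read 20855 in parental cells, 17417 in the cisplatin-resistant subline and 21594 in the doxorubicin-resistant subline. The probe set 207332_s_at read 17772, 16273 and 18027. The cisplatin-resistant value was the lowest in both, with log2 differences from parental of -0.26 and -0.13, and the doxorubicin-resistant values differed by 0.05 and 0.02. The dim probe set 237215_s_at, with signals of 147, 105 and 131, had -0.49 and -0.17. The probe set 240686_x_at crossed the floor from 36.7 to 77.3 and 84.3, and 237214_at was under it on all 3 arrays. No TFRC probe set with both values above the floor reached 2-fold in any comparison. For 240686_x_at the differences from parental are bounds, at least 1.00-fold and 1.10-fold higher, and do not show whether 2-fold was reached.

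TFR2, the paralog through which hepatocytes sense loaded transferrin, was not measurable. Its 3 probe sets lay under the floor on all 3 arrays, with signals from 4.07 to 66.5, and no fold is given.

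SLC11A2, the divalent metal transporter DMT1 that moves iron out of endosomes, was close to level by its brighter probe sets. The probe set 203124_s_at read 1883, 1773 and 1879, and 203123_s_at read 901, 837 and 865. The probe set 203125_x_at read 542, 508 and 431, and log2 differences from parental over these 3 ranged from -0.33 to -0.00. The dim probe sets 210047_at and 237106_at, with signals of 66.6 to 154, did not share 1 direction in the cisplatin-resistant array. There 210047_at was 1.68-fold lower and 237106_at 1.25-fold higher. In the doxorubicin-resistant array 210047_at was 1.71-fold lower and 237106_at at least 1.37-fold lower.

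SLC40A1, ferroportin, the only known cellular iron exporter, was lower in the cisplatin-resistant array by 1 of its probe sets. The bright probe set 223044_at read 6992 in parental cells, 4047 in the cisplatin-resistant subline and 6975 in the doxorubicin-resistant subline. The cisplatin-resistant value was 1.73-fold below the parental one, and 1018 of 25654 probe sets measured on both arrays lay lower, while the doxorubicin-resistant value had a log2 difference of -0.00. The dimmer probe set 233123_at read 552, 587 and 481 and was 1.06-fold higher in the cisplatin-resistant array, so the probe sets disagreed. None of these differences reached 2-fold. The 15 nearest genes of chromosome 2 had a median of 0.11 in the cisplatin-resistant array.

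FTL, the light chain of the ferritin shell, differed little. The probe set 212788_x_at read 40881 in parental cells, 39578 in the cisplatin-resistant subline and 42673 in the doxorubicin-resistant subline, and 213187_x_at read 34743, 31534 and 35262. All 4 log2 differences from parental lay between -0.14 and 0.06. These signals are near the top of the scale, since the brightest probe set of any kind read 47009, 44066 and 52776. Both are _x_at probe sets, which can also bind related sequences, and ferritin has many processed pseudogenes. For the heavy chain the only named signal is a probe set of the pseudogene FTH1P5 (211628_x_at), picked after its values were seen. It read 32433, 31530 and 33417, and its share from FTH1 mRNA is unknown.

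HMOX1, which breaks haem into iron, carbon monoxide and biliverdin, separated the sublines. Its single probe set (203665_at) read 9642 in parental cells, 1564 in the cisplatin-resistant subline and 5584 in the doxorubicin-resistant subline. The cisplatin-resistant value was the low one, 6.17-fold below parental, with 10 of 25654 probe sets measured on both arrays lower. The doxorubicin-resistant value lay between the others, 1.73-fold below parental and 3.57-fold above the cisplatin-resistant value. In that direct comparison 74 of 25347 probe sets measured on both arrays stood higher. The 15 neighbours of HMOX1 on chromosome 22 had a median of 0.04 and a range of -1.33 to 0.84 in the cisplatin-resistant array, where 1 was past 2-fold. Their median was -0.00 and their range -0.72 to 0.45 in the doxorubicin-resistant array. With 1 probe set, no second measurement of HMOX1 was available.

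ACO1 is the cytosolic aconitase that turns into iron regulatory protein 1 when it loses its iron-sulfur cluster. Its probe set 207071_s_at read 2317 in parental cells, 2674 in the cisplatin-resistant subline and 2467 in the doxorubicin-resistant subline, 1.15-fold and 1.06-fold higher than parental. The other probe set was under the floor on all 3 arrays.

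Over all compared probe sets of the group, 4 of 18 passed 2-fold on the lower side in the cisplatin-resistant array, 3 of TF and 1 of HMOX1. None was called higher, with values under the floor raised to it. Of all 29467 probe sets compared there, 2.33% were called lower and 4.72% called in either direction. In the doxorubicin-resistant array 3 of 18 were lower, all of TF, against 2.39% of all 29078 called lower and 4.93% in either direction. In the direct comparison 1 of 17, HMOX1, was higher in the doxorubicin-resistant array, against 2.61% called higher and 5.57% in either direction. By 1 probe set per gene, TF and HMOX1 were past 2-fold among 7 compared genes in the cisplatin-resistant array, where 5.41% of all genes were called, and TF alone in the doxorubicin-resistant array, where 5.72% were. Since TF and HMOX1 led to the choice of the group, nothing is read from these counts. The median log2 difference over the 18 was -0.13 and -0.11, beside 0.01 and -0.02 over all probe sets.

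**Figure D3:**
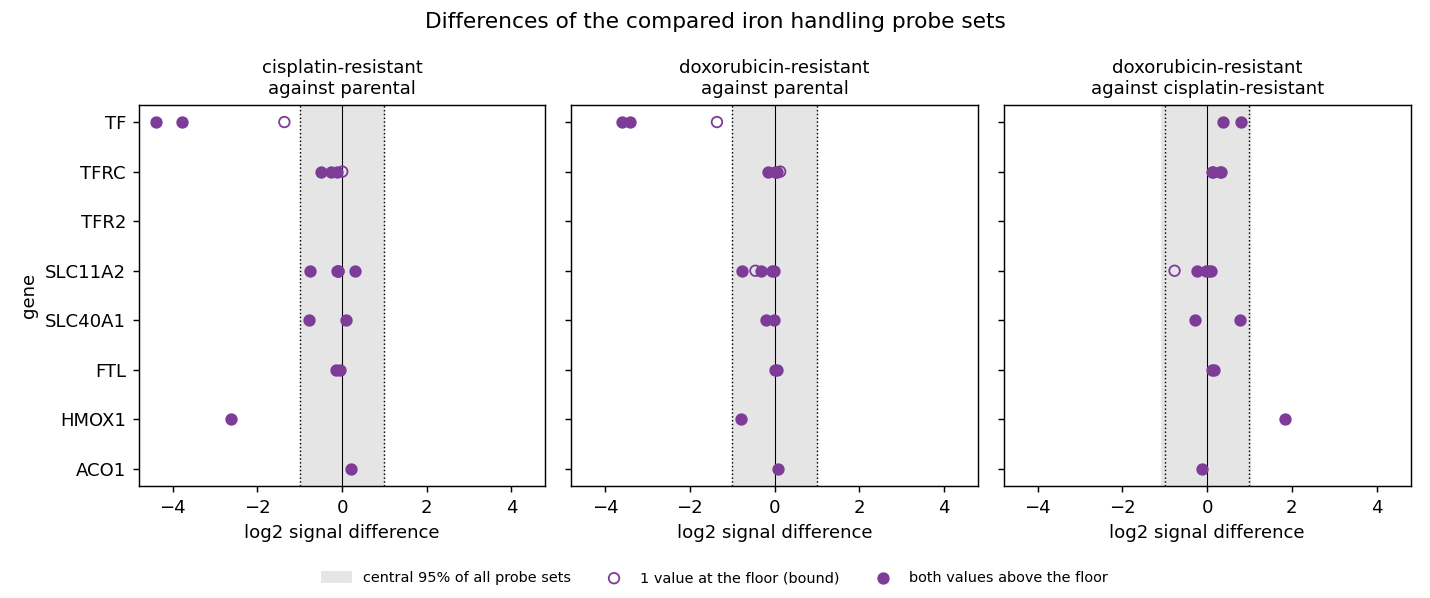
Log2 signal difference of each compared probe set of the group, by gene, in the 3 comparisons; filled points have both values above the floor and open points 1 value at it. The grey band holds the central 95% of all probe sets and dotted lines mark 2-fold. TF lies outside the band in both comparisons with parental, and HMOX1 in those that involve the cisplatin-resistant array. All points of the other genes are within 2-fold, where an open point is a bound.

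The genes closest to TF and HMOX1 in pattern were sought among 11125 other genes above the floor on all 3 arrays, by the Euclidean distance between the 3 log2 signals, each gene centred on its own mean. Nearest to TF were ABTB3 (distance 1.00), SPIRE1 (1.05), an actin nucleator on chromosome 18, and the tight-junction protein CLDN2 (1.27). All 3 differed less than TF, with ABTB3 at 1420, 178 and 213 signal units. HMOX1 had closer neighbours in MAGEC2 (0.14), a cancer-testis antigen, CYP24A1 (0.15), the enzyme that inactivates vitamin D, and SMARCA1 (0.37), a chromatin remodelling ATPase. CYP24A1 read 5135, 781 and 3239. Such a likeness rests on 3 points.

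Transcription regulators known for TF were compared next, a list of 10 of which 6 could be compared. CEBPA, a C/EBP family factor of mature hepatocytes, had a signal of 4200 in parental cells, 1382 in the cisplatin-resistant subline and 2765 in the doxorubicin-resistant subline. It was 3.04-fold lower in the cisplatin-resistant array and 1.52-fold lower in the doxorubicin-resistant array, with the lines in the same order as for TF and HMOX1. Its neighbours on chromosome 19 had a median of -0.31 in the cisplatin-resistant array, which left -1.29. The other compared factors were within 2-fold of parental in both, and the list medians were -0.15 and 0.01. Of the same C/EBP family, CEBPB read 13413, 11586 and 18222, and CEBPD read 1135, 908 and 1110. No HNF4 gene was among the 6 compared. The part of CEBPA in the TF values was not tested. The background was the 5.41% of 12710 and 5.72% of 12605 genes called.

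Most hepatocyte marker genes were low beside TF in the cisplatin-resistant subline and fewer in the doxorubicin-resistant one. Of 13 compared in the cisplatin-resistant array, 9 were lower, 1 higher and 3 within 2-fold, against 5.41% of all genes called. Their median was -1.63 beside 0.02 for all genes. In the doxorubicin-resistant array 3 of 12 were lower, 2 higher and 7 within 2-fold, against 5.72% of all genes called. Their median was -0.59 beside 0.00. The summed hepatocyte marker signal was 13283 in parental cells, 3646 in the cisplatin-resistant subline and 9137 in the doxorubicin-resistant subline. Albumin (ALB), the main plasma protein, read 1545, 3.17 and 3115, at least 20.1-fold below parental in the cisplatin-resistant subline. In the doxorubicin-resistant subline, where TF was low, ALB was 2.02-fold higher by this probe set. Its other compared probe sets gave log2 differences of -2.34 and -1.40 in the former subline, with the lower value at the floor, and of 0.18 and 0.95 in the latter. The fibrinogen chains FGB and FGG were low in both, FGB with 1977, 291 and 49.6. APOB, the apolipoprotein of low-density lipoproteins, ran the other way, with 42.3, 386 and 816. The summed fibroblast marker signal was 742, 3305 and 1528. Of those markers, lumican (LUM), a matrix proteoglycan, read 258, 2632 and 1167, while its other probe set gave a bound of 0.07 in log2 in the cisplatin-resistant subline. The part of these markers in the TF values was not tested.

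Regulators of HMOX1 were within 2-fold. By the brightest probe set, none of the 9 compared, among them the repressor BACH1 and the activator NFE2L2 (NRF2), reached 2-fold against parental. Log2 differences ranged from -0.85 to 0.26 in the cisplatin-resistant subline and -0.47 to 0.79 in the doxorubicin-resistant subline. The lowest value in both was that of BACH2, whose other probe set went the opposite way, at 0.58 and 0.88. By the brightest probe set of each gene, the 11 compared members of a list of other NRF2 targets, which include NQO1, GCLM and TXNRD1, ranged from -0.55 to 0.31 and from -0.30 to 0.23, with medians of -0.09 and -0.00. Dimmer probe sets can differ more. For AKR1C1, an aldo-keto reductase named after its values were seen, the brightest gave -0.01 in both sublines, while its 4 others ranged from -1.29 to 0.78 in the cisplatin-resistant array and from -1.47 to -0.02 in the doxorubicin-resistant one. The list of haem carriage, export and breakdown holds the constitutive HMOX2 and the biliverdin reductases BLVRA and BLVRB. By the brightest probe set it had none of 10 past 2-fold, with medians of 0.10 and 0.11. The 2 other compared probe sets of FLVCR2 ranged from -1.37 to -0.34 in the doxorubicin-resistant array, against -0.60 for the brightest. Over all genes, 5.41% and 5.72% were called.

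Haem synthesis had 1 of 12 genes higher and 1 lower in the cisplatin-resistant array and none past 2-fold in the doxorubicin-resistant array, against 5.41% and 5.72% of all genes called. ABCB6, a porphyrin transporter, read 814, 1649 and 1070 and was 2.03-fold higher in the cisplatin-resistant array, and 0.95 in log2 after its neighbours' median was subtracted. FECH, which inserts iron into the porphyrin ring, read 2306, 1121 and 1903 and was 2.06-fold lower there. FECH lies on chromosome 18, where its 15 nearest compared genes had a median of -0.81, which left -0.23 for FECH. Its other probe sets ranged from -1.27 to -0.44.

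Partners of iron uptake had 1 of 12 genes past 2-fold in each subline, against 5.41% and 5.72% of all genes called. It was SLC39A8, a zinc transporter family member that also carries iron and manganese, with 82.5, 257 and 176 signal units, 3.11-fold higher in the cisplatin-resistant subline and 2.13-fold higher in the doxorubicin-resistant subline. The parental value is close to the floor. Of its other probe sets, 2 could be compared in the cisplatin-resistant array, where they gave lower bounds of 0.05 and 0.54 in log2 with the parental value at the floor, and none in the doxorubicin-resistant array. Iron chaperones and ferritin turnover, which includes the ferritinophagy receptor NCOA4, had none of 6 past 2-fold. Iron-sulfur cluster assembly had none of 22 by the brightest probe set of each gene, with medians of 0.07 and -0.07. The 9 other compared probe sets of SLC25A37 ranged from -0.52 to 1.31 in the cisplatin-resistant array. Regulators of the iron regulatory proteins and other mRNAs with an iron-responsive element had none of 8 likewise, with medians of 0.19 and 0.10. The other probe set of CUL1 gave 1.19 in the doxorubicin-resistant array, against 0.51 for the brightest. The same shares of all genes, 5.41% and 5.72%, stand beside these counts.

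Hepcidin and its regulators had the lowest median of the iron lists in the cisplatin-resistant array. Over 15 compared genes it was -0.49, beside 0.02 for all genes. Of the 15, 11 were below parental and 1 was past 2-fold, against 5.41% of all genes called. That gene was SMAD7, the inhibitor of BMP and TGF-beta signalling that damps hepcidin, with 575, 187 and 600 signal units, 3.08-fold lower. SMAD7 is on chromosome 18, and its neighbours had a median of -0.66, which left -0.97. HAMP, the gene of hepcidin itself, was dim, and its values are given after they were seen. It read 126, 131 and 78.2, with log2 differences from parental of 0.06 and -0.69. In the doxorubicin-resistant array the list median was 0.00 and no member passed 2-fold, against 5.72% of all genes called. Against the cisplatin-resistant array, 3 of the 15 were higher in the doxorubicin-resistant array, SMAD7, SMAD4 and NEO1, with SMAD7 3.21-fold higher. SMAD4 is also on chromosome 18. The neighbours of SMAD7 and SMAD4 had medians of 0.52 and 0.72 there, which left 1.16 and 0.43, the latter under 2-fold. For NEO1, on chromosome 15, 1.19 was left. Without subtraction, the other probe set of NEO1 gave 0.83, under 2-fold, and the 2 others of SMAD4 gave 0.44 and 1.13. Of all 12604 genes, 3.05% were called higher in that comparison.

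Taken as 1 set of 158 genes outside the group, 128 of them compared, the iron lists had 3 higher and 3 lower in the cisplatin-resistant array, 4.69%, and 3 higher and 1 lower in the doxorubicin-resistant array, 3.12%. These shares lie under the gene backgrounds of 5.41% and 5.72%. Their medians were -0.01 and 0.03. The set also holds the regulators of TF and HMOX1, the other NRF2 targets and the ferroptosis genes described below. Of the genes called, CEBPA and GCH1 in the cisplatin-resistant array come from these lists. In the doxorubicin-resistant array GCH1, CHAC1 and PTGS2 do.

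**Figure D4:**
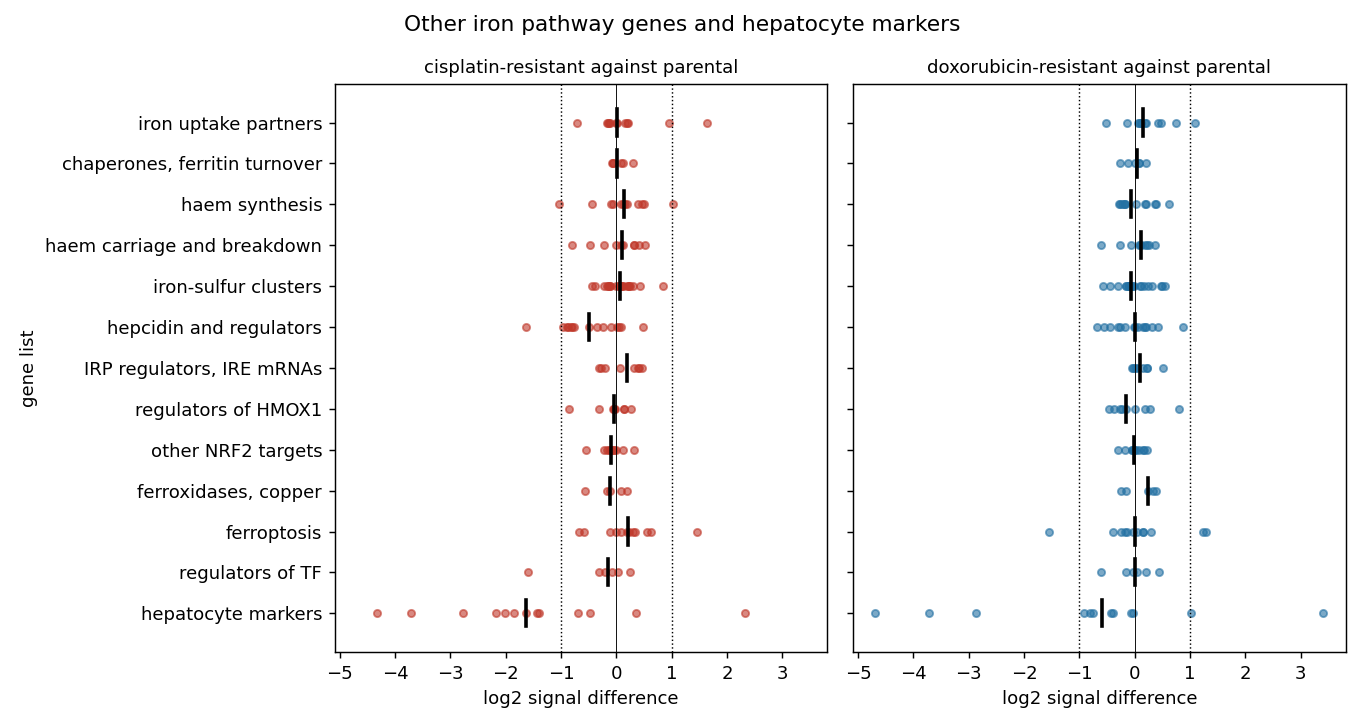
Log2 signal difference from parental of every compared gene of the other iron lists and of the hepatocyte markers, 1 point per gene, with the black bar at the list median and dotted lines at 2-fold. Most iron list points lie within 2-fold, the hepcidin list bar stands at -0.49 in the cisplatin-resistant array, and the hepatocyte marker bars stand at -1.63 and -0.59.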

How the data were processed

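Total RNA of the 3 lines was hybridised to Affymetrix U133 Plus 2.0 arrays, per the labels' protocols. The authors deposited a linear intensity (signal) per probe set, made with MAS5 per the submitters' processing notes; version and scaling target are not given in the sources used here. The 2% trimmed mean was 499.9 on each array, the form a global scaling gives. MAS5 subtracts mismatch signal, which makes low values noisy, and scaling assumes similar total signal.

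Of 54675 probe sets, 41097 had 1 gene symbol in the platform annotation, 1801 several, 11721 none and 62 were controls; 41043 matched RefSeq (GRCh38.p14) by Entrez identifier, used for symbols and gene order. A gene was represented by its brightest probe set (mean log2 signal). Differences were called at 2-fold. Python 3.11.15, pandas 2.3.3 and NumPy 2.4.6 were used, and the steps were tested on simulated arrays. Members and lists were chosen with earlier results of these data known. Named genes were all members, up to 4 genes a list past 2-fold from parental by size, and the 3 nearest to TF and HMOX1. Most other genes are named as examples of a list, without values. The exceptions, given after their values were seen, are FTH1P5, AKR1C1, HAMP, EPOR, CEBPB, CEBPD, SMAD4, NEO1, SLC25A37, CUL1, FLVCR2, ATP7A and BACH2. Alternatives changed the floor, the scaling, the probe set of a gene and the neighbours.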

Additional observations from a re-analysis of the deposited data

How the results depend on the processing

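TF kept its calls in both comparisons with parental in all 9 settings. Its log2 differences were -4.43 to -3.49 in the cisplatin-resistant and -3.61 to -3.42 in the doxorubicin-resistant array. The -3.49 is a bound, from the floor at the 75th percentile, where the cisplatin-resistant value was at the floor. HMOX1 kept its calls, at -2.66 to -2.59 against parental in the cisplatin-resistant array and 1.80 to 1.98 between the sublines. No called difference changed sign. SLC40A1 in the cisplatin-resistant array ranged from -0.90 with the neighbours subtracted to -0.35 as the median over its probe sets, under 2-fold in all 9. With the floor at the 25th percentile, the cisplatin-resistant array had 5 of 22 group probe sets and 2 of 8 group genes past 2-fold from parental. Of other iron genes, 9 of 138 were. The main floor gave 4 of 18, 2 of 7 and 6 of 128. For the doxorubicin-resistant array against parental the lower floor gave 5 of 21, 2 of 8 and 8 of 137, in place of 3 of 18, 1 of 7 and 4 of 128. Between the sublines it gave 3 of 22 probe sets and 2 of 8 genes, in place of 1 of 17 and 1 of 7. The gene added in these last 2 comparisons was TFR2, at -1.14 and -1.34, which is under the main floor on all 3 arrays. With the floor at the 75th percentile, the other iron genes past 2-fold numbered 3 of 110 in the cisplatin-resistant array. They numbered 0 of 112 in the doxorubicin-resistant array and 3 of 110 between the sublines, in place of 6, 4 and 6 of 128. The share of all genes called at these other floors is not given, so nothing is read from the counts. No paired analysis was possible because each group is 1 array, and for the same reason no array could be left out. Signal over background limits TFR2 and the dim probe sets of the other genes.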

Other observations

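Ferroptosis genes, which govern iron-dependent lipid peroxidation, had 1 of 12 higher in the cisplatin-resistant array and 2 higher and 1 lower in the doxorubicin-resistant array, against 5.41% and 5.72% of all genes called. GCH1, the first enzyme of tetrahydrobiopterin synthesis, read 212 in parental cells, 583 in the cisplatin-resistant subline and 501 in the doxorubicin-resistant subline, 2.75-fold and 2.36-fold higher. CHAC1, which degrades glutathione, read 324, 202 and 795 and was 2.46-fold higher in the doxorubicin-resistant array. PTGS2, the inducible cyclooxygenase, read 460, 568 and 158 and was 2.90-fold lower there. Its neighbours had a median log2 difference of -0.63 in that array, which left -0.91, under 2-fold. The list medians were 0.21 and 0.00.

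Ferroxidases and copper supply genes, which include ceruloplasmin (CP), the plasma ferroxidase that loads iron onto transferrin, had none of 5 past 2-fold against parental in either subline. Their medians were -0.12 and 0.25, and 5.41% and 5.72% of all genes were called. These counts use the brightest probe set. The other one of ATP7A gave -1.07 in the doxorubicin-resistant array, against -0.16 for the brightest. Erythroid markers had 3 genes with a probe set, and their summed signal was 1023 in parental cells, 601 in the cisplatin-resistant subline and 879 in the doxorubicin-resistant subline. Most of it came from 1 probe set of EPOR, the erythropoietin receptor, with 829, 446 and 690. The 3 other compared EPOR probe sets gave log2 differences of 0.02 to 0.75 in the cisplatin-resistant array, against -0.89 for this one, so the probe sets disagreed.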
